A study of Homo sapiens with 6 samples.

Results

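The enzymes that write, copy and remove DNA methylation were followed through depletion of the RNA helicase DDX18 in human embryonic stem cells. The 8 genes chosen are DNMT3A, DNMT3B, DNMT1, UHRF1, TET1, TET2, TET3 and TDG, and each was found by its symbol as 1 of the 17929 genes measured by RNA sequencing. Cells of the established lines H9 and HES2 were infected with virus carrying shDDX18#1 or shDDX18#3, hairpins against DDX18, or with shLuc, the luciferase control hairpin, and were collected at day 4. All cells were grown on irradiated mouse embryonic fibroblast feeders, and each hairpin has 1 library per line. Knockdown therefore has 4 libraries and shLuc has 2. The libraries differ in line, in hairpin or in both, and no culture was repeated within a line and hairpin. The p-values therefore measure the spread between these libraries only, and not that between repeat cultures. Whether a single starting culture of each line was divided among the hairpins is not stated. Each line is a single genotype, and n counts libraries.

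Methylation of cytosine in CpG dinucleotides is laid down on unmodified DNA by DNMT3A and DNMT3B, the de novo methyltransferases. After replication DNMT1 copies it to the new strand, guided by UHRF1, which binds hemimethylated CpG. TET1, TET2 and TET3 oxidise 5-methylcytosine, and TDG excises the more oxidised forms so that base excision repair can restore cytosine. Human embryonic stem cells are known for high DNMT3B and TET1 expression, and both genes decline as such cells differentiate.

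The demethylase genes TET1 and TET2 went opposite ways after knockdown, and the sequence in front of each is shown for that reason. RefSeq windows on GRCh38.p14 were matched for all 8 genes. The 250 bases before the start nearest the beginning of the gene annotation are printed with each CpG, the target of these enzymes, in capitals. Relative to that beginning the RefSeq start lies at -319 bases, thus upstream, for TET1 and at 0 bases for TET2. The TET1 window is chr10:68560087-68560336 on the forward strand and the TET2 window is chr4:105145625-105145874 on the forward strand.
TET1: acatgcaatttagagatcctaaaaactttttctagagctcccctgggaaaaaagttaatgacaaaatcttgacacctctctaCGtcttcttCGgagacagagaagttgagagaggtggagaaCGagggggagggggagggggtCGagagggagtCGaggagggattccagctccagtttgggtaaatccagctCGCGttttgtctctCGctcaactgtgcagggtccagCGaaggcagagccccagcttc
TET2: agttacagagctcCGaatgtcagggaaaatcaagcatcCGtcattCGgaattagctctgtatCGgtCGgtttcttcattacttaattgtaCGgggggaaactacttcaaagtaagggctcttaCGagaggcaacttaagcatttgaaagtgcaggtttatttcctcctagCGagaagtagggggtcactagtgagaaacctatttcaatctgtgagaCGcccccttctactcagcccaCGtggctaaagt
The TET1 stretch holds 9 CpG and the TET2 stretch holds 10. Observed over expected CpG was 0.559 for TET1 and 0.772 for TET2, and neither stretch overlaps an annotated exon of its gene. A longer RefSeq window of 300 bases, which adds 50 bases after the start, had a median of 14 CpG over all 35116 windows, against 10 in this TET1 window and 13 in this TET2 window. Another TET2 window, whose start lies 1001 bases inside the gene annotation, had 35 CpG. The other TET1 windows, with starts 39612 and 39818 bases inside, had 6 and 11. Which of these starts the cells use was not tested. The only DNMT3B window given has its RefSeq start 17467 bases inside the gene annotation, and no DNMT3B sequence is shown.

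The maintenance pair DNMT1 and UHRF1 are genes of proliferating cells, and E2F factors, which drive S phase genes, bind GC-rich sites of the kind TTTCGCGC, TTTGGCGC, TTTCCCGC and TTTGCCGC. These 4 motifs were searched on both strands in the windows of all 8 genes, after the expression values were known. Matches were found in the only DNMT1 window and in 2 of the 3 UHRF1 windows, and each is shown with 11 bases on either side, the motif in capitals and all read on the strand of the gene.
DNMT1, chr19:10194937-10194966, reverse strand: catcggtttccGCGCGAAAagccggggcgc
UHRF1, chr19:4909476-4909505, forward strand: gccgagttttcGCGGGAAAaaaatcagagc
UHRF1, chr19:4909973-4910002, forward strand: cccgagcccgaTTTCGCGCgccctgagttc
The motif begins 2 bases before the RefSeq start of the DNMT1 window, and 14 and 160 bases before the RefSeq starts of the UHRF1 windows. These starts also lie inside the gene annotation, by 36333 bases in DNMT1 and by 6421 and 7064 bases in UHRF1, and which starts these cells use was not tested. At least 1 of the 4 motifs occurred in 1164 of the 35116 windows, or 3.31%. All 4 motifs contain CpG, and the matched windows hold 30 (DNMT1), 36 and 40 CpG (UHRF1), against a median of 14 over all windows. The share among windows so rich in CpG was not taken. These are matches of letters, with no binding measured here.

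Expression levels are the signal values of the deposited table, which are reads scaled to an effective library of 1e+06 (CPM). Libraries held between 2668179 and 4271741 reads, so that 1 read is worth 0.224 to 0.408 CPM and a floor of 3 reads lies at 0.671 to 1.23 CPM. These are counting limits only. DDX18 itself fell in the libraries labelled as knockdown to 12.6% and 31.0% of the line's own shLuc level in H9 with shDDX18#1 and shDDX18#3, and to 24.5% and 37.6% in HES2. All 14 embryonic stem cell markers listed were detected. The 20 fibroblast and feeder markers took 4.57% and 1.84% of reads in the H9 knockdown libraries, 0.777% and 0.632% in the HES2 knockdown libraries, and 0.451% and 0.177% in the shLuc libraries of H9 and HES2. Of these markers 12 rose and none fell at an adjusted p under 0.05, where 9.6% of all tested genes rose. ACTA2, COL5A1, COL1A1 and COL3A1 led. DCN and FAP, named after their values were seen, were at 0 in HES2 shDDX18#3 and HES2 shLuc, and at 0.965 and 0.322 CPM in HES2 shDDX18#1. In H9 with shDDX18#1, shDDX18#3 and shLuc DCN had 44.9, 14.3 and 5.54 CPM and FAP 30.6, 12.3 and 0.831 CPM. In HES2 18 and 13 of the 20 markers were higher than the control with shDDX18#1 and shDDX18#3, and 2 and 5 were lower. In such bulk samples fewer cells of a type and less RNA per cell cannot be told apart.

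Fold changes are on the log2(CPM + 1) scale with cell line as a block, from limma with Benjamini-Hochberg adjustment over the 17768 genes tested, and a gene is called at an adjusted p under 0.05. All 8 genes passed the filter of 1 CPM in at least 2 libraries. The fit across both hairpins has terms for knockdown and cell line only. Any difference between the 2 hairpins therefore counts as spread in that fit. Across both hairpins DNMT3B, UHRF1 and TET1 fell, TET2 rose, and DNMT1, DNMT3A, TET3 and TDG were not called. Thus 4 of the 8 were called, 3 lower and 1 higher, against 15.9% of all tested genes called in either direction, 6.26% called lower and 9.6% called higher. The median log2 fold change was -0.48 over the 8 genes and -0.02 over all genes tested. In 5 of the 8 genes the 4 knockdown libraries and the 2 shLuc libraries did not overlap, DNMT3B, DNMT1, UHRF1 and TET1 lying lower and TET2 higher. Over all tested genes 20.9% lay wholly lower and 19.8% wholly higher.

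**Figure D1:**
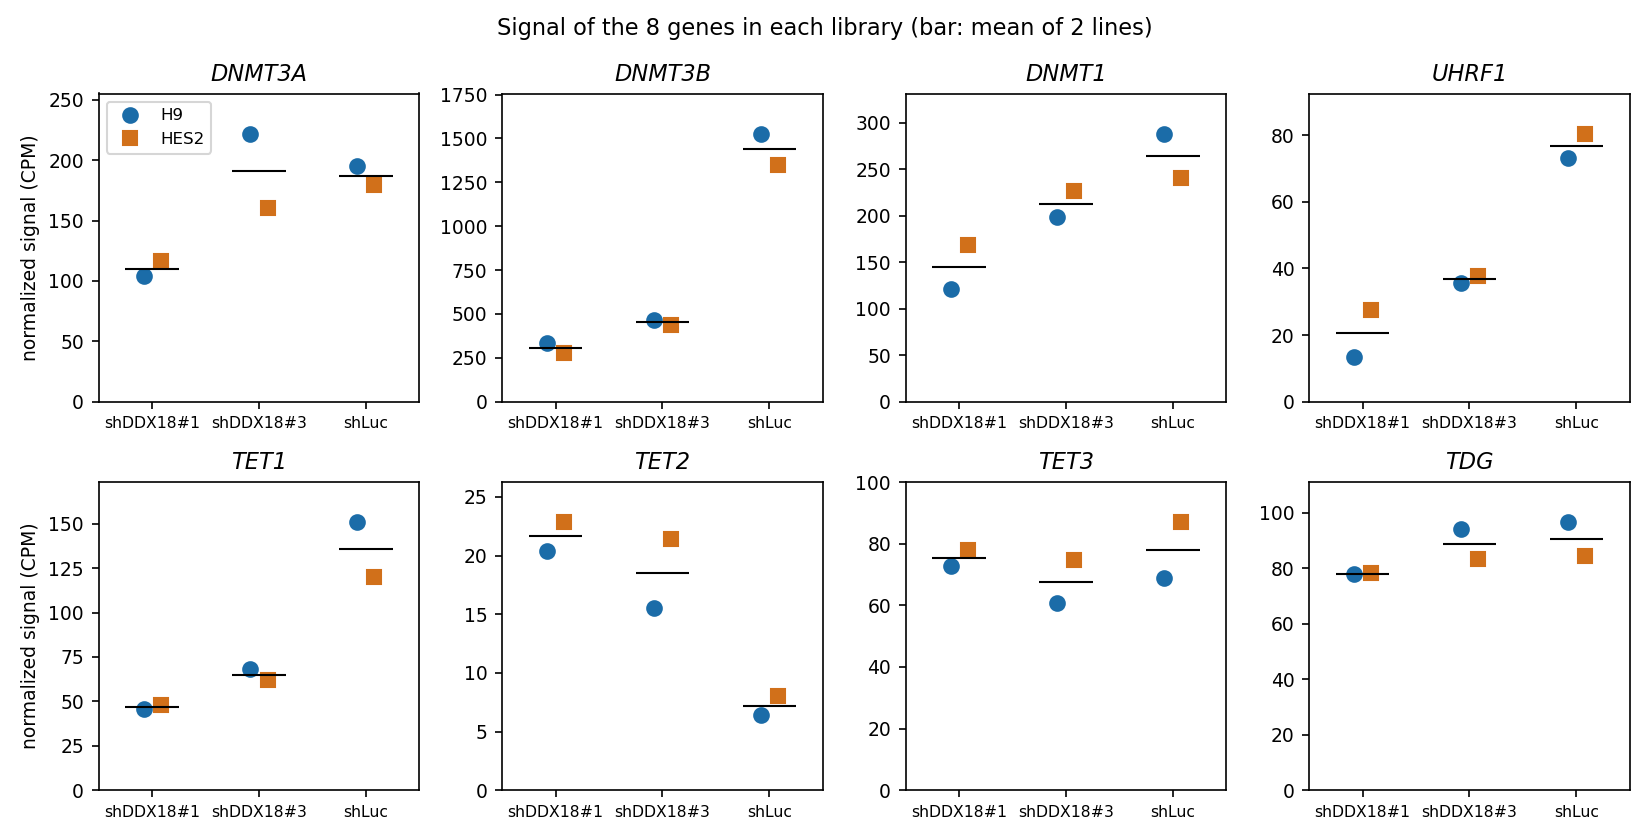
Normalized signal in CPM (vertical axes, each from 0) of the 8 genes in every library; circles are H9, squares are HES2 and the bar is the mean of the 2 lines. DNMT3B, UHRF1 and TET1 lie far lower in all 4 knockdown libraries than with shLuc, TET2 lies higher, and TET3 and TDG overlap.

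Of the de novo methyltransferases, DNMT3B was the more abundant per kilobase and fell furthest of the 8 genes. DNMT3B had 336 and 466 CPM in H9 with shDDX18#1 and shDDX18#3 and 277 and 439 CPM in HES2 with the same hairpins, against 1527 CPM in H9 shLuc and 1349 CPM in HES2 shLuc. Every knockdown library was far below its own control, at between 20.5% and 32.6% of it. Knockdown averaged 379 ± 88.3 CPM (SD, n = 4) and shLuc 1438 ± 126 CPM (SD, n = 2), a log2 fold change of -1.95 with a standard error of 0.22 (limma adjusted p = 0.0029).

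DNMT3A, the other de novo methyltransferase, was not called across both hairpins. DNMT3A had 104 and 222 CPM in H9 with shDDX18#1 and shDDX18#3 and 116 and 161 CPM in HES2, against 195 CPM in H9 shLuc and 179 CPM in HES2 shLuc. Both shDDX18#1 libraries were low, whereas the H9 shDDX18#3 library was the highest of the 6. The knockdown libraries averaged 151 ± 53.4 CPM (SD, n = 4) and the shLuc libraries 187 ± 11 CPM (SD, n = 2), and the log2 fold change of -0.37 was not called (limma adjusted p = 0.391).

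Per kilobase of annotated exon, the 2 genes can be set side by side. DNMT3B averaged 82.0 CPM per kb in knockdown and 311 CPM per kb with shLuc, and DNMT3A 12.5 CPM per kb in knockdown and 15.6 CPM per kb with shLuc. DNMT3B thus supplied 86.9 ± 2.11% (SD, n = 4) of their summed level per kb in knockdown and 95.2 ± 0.131% (SD, n = 2) with shLuc. The summed level of DNMT1, DNMT3A and DNMT3B was 113 ± 26.4 CPM per kb in knockdown and 353 ± 31.6 CPM per kb with shLuc. DNMT3B remained the highest per kb of the 8 genes in all 6 libraries. Exon lengths are the union of all annotated isoforms and can understate the level of a gene with long rare exons.

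**Figure D2:**
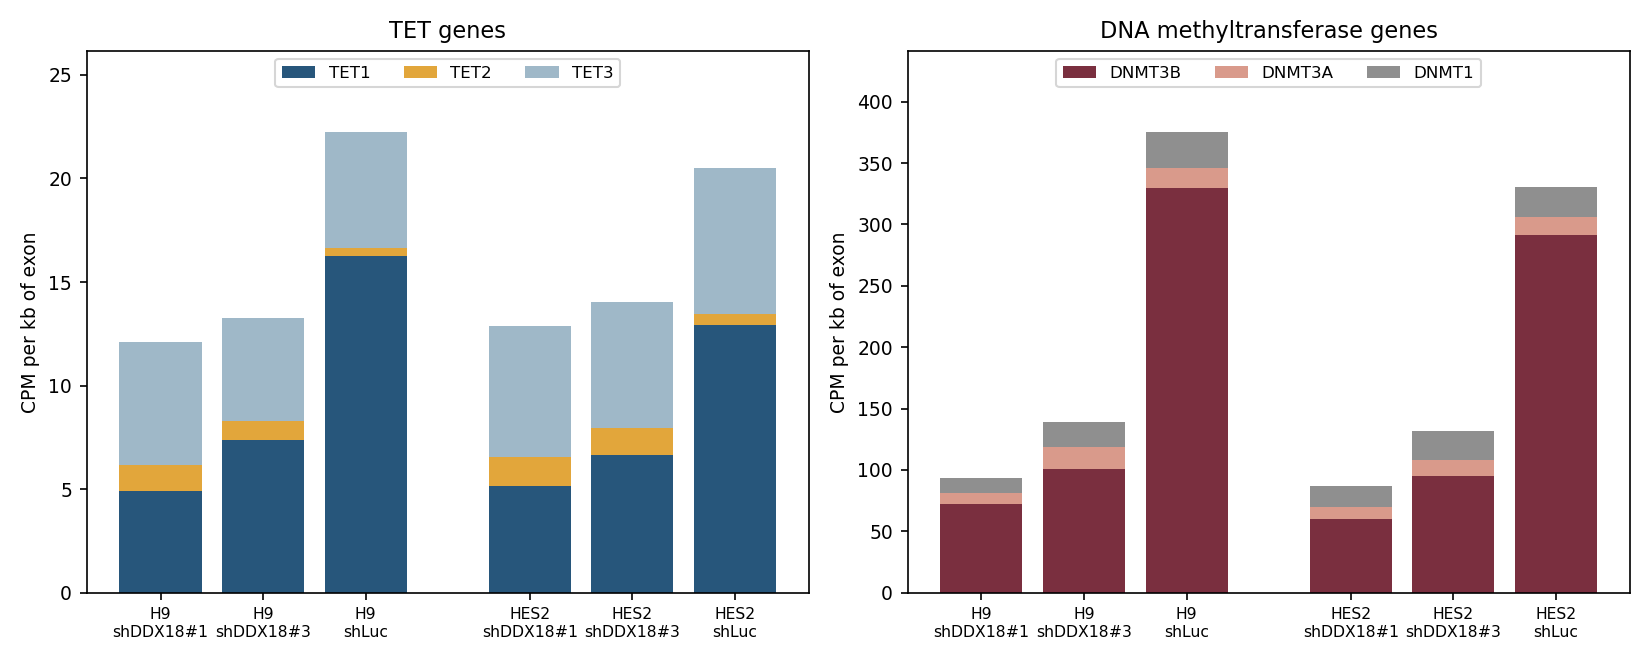
Stacked level per kb of exon (CPM per kb) of the TET genes and of the DNA methyltransferase genes in each library. DNMT3B makes up most of the right-hand bars in every library, and in the left-hand bars the TET1 part is smaller and the TET2 part larger in knockdown than with shLuc.

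The maintenance genes were lower in every knockdown library, UHRF1 by more than DNMT1. UHRF1 had 13.5 and 35.7 CPM in H9 with shDDX18#1 and shDDX18#3 and 27.7 and 37.9 CPM in HES2, against 73.1 CPM in H9 shLuc and 80.5 CPM in HES2 shLuc. The H9 shDDX18#1 library was the lowest, with 33 reads, at 18.4% of its control (95% exact counting interval 12.4 to 26.5%). UHRF1 averaged 28.7 ± 11 CPM in knockdown (SD, n = 4) and 76.8 ± 5.23 CPM with shLuc (SD, n = 2), and fell by 1.49 on the log2 scale with a standard error of 0.35 (limma adjusted p = 0.027). That call was lost without the block for cell line (limma adjusted p = 0.0541) and in limma without the intensity trend (adjusted p = 0.073).

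DNMT1 had 122 and 199 CPM in H9 with shDDX18#1 and shDDX18#3 and 169 and 227 CPM in HES2, against 288 CPM in H9 shLuc and 241 CPM in HES2 shLuc. The groups did not overlap, but HES2 shDDX18#3 kept 94.2% of its control, with a counting interval of 85.9 to 103%. Knockdown averaged 179 ± 45.0 CPM (SD, n = 4) and shLuc 265 ± 33.4 CPM (SD, n = 2), and the log2 fold change of -0.59 was not called (limma adjusted p = 0.126). S1PR2 is the one other gene whose annotated exons share bases with any of the 8, on 83 bases or 0.847% of the DNMT1 exons.

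The TET genes moved in different directions. TET1 had 45.7 and 68.4 CPM in H9 with shDDX18#1 and shDDX18#3 and 47.9 and 61.8 CPM in HES2, against 151 CPM in H9 shLuc and 120.3 CPM in HES2 shLuc. Each knockdown library lay between 30.3% and 51.4% of its control. TET1 averaged 56.0 ± 10.9 CPM in knockdown (SD, n = 4) and 136 ± 21.6 CPM with shLuc (SD, n = 2), a log2 fold change of -1.27 with a standard error of 0.20 (limma adjusted p = 0.0084).

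TET2 was the scarcest of the 8 genes per kb in all 6 libraries and the only one of them called higher. TET2 had 20.4 and 15.6 CPM in H9 with shDDX18#1 and shDDX18#3 and 22.8 and 21.4 CPM in HES2, against 6.37 CPM in H9 shLuc and 8.05 CPM in HES2 shLuc. These rest on 50, 48, 71 and 77 reads in the knockdown libraries and on 23 and 36 reads in the shLuc libraries. TET2 averaged 20.1 ± 3.16 CPM in knockdown (SD, n = 4) and 7.21 ± 1.19 CPM with shLuc (SD, n = 2), a log2 fold change of 1.35 with a standard error of 0.22 (limma adjusted p = 0.0095). The smallest rise, in H9 with shDDX18#3, was to 244% of its control, with a counting interval of 146 to 421%.

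TET3 and TDG were not called, and their groups overlapped. TET3 had 60.6 to 77.9 CPM in the 4 knockdown libraries, against 68.9 CPM in H9 shLuc and 87.0 CPM in HES2 shLuc, with a log2 fold change of -0.12 and a 95% interval of -0.46 to 0.22 (limma adjusted p = 0.606). TDG had 78 to 94.3 CPM in knockdown, against 96.6 CPM in H9 shLuc and 84.5 CPM in HES2 shLuc, with a log2 fold change of -0.12 and a 95% interval of -0.45 to 0.22 (limma adjusted p = 0.610). The pseudogene TDGP1, a copy of TDG whose reads the counting could confuse with it, was at 3.06 to 5.19 CPM in all 6 libraries.

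The make-up of the TET genes per kb followed from these values. TET1 supplied 45.9 ± 7.24% of the summed TET level per kb in knockdown (SD, n = 4) and 68.1 ± 7.02% with shLuc (SD, n = 2), and in all 4 knockdown libraries its share was below both shLuc shares. TET2 supplied 9.35 ± 1.61% in knockdown and 2.06 ± 0.455% with shLuc. TET3 supplied 44.7 ± 5.65% in knockdown and 29.9 ± 6.56% with shLuc. TET3 exceeded TET1 per kb in both shDDX18#1 libraries, and TET1 exceeded TET3 in both shDDX18#3 and both shLuc libraries. The summed level of the TET genes was 13.1 ± 0.810 CPM per kb in knockdown and 21.4 ± 1.22 CPM per kb with shLuc.

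Within each library 5 log2 ratios were taken of CPM + 1 of one gene over CPM + 1 of another. The log2 ratio of TET2 over TET1 differed most, by 2.63, with a mean of -1.43 in knockdown and -4.06 with shLuc. The log2 ratio of DNMT3B over DNMT3A differed by -1.57, with means of 1.36 in knockdown and 2.93 with shLuc. The log2 ratio of UHRF1 over DNMT1 differed by -0.89, that of TET1 over TET3 by -1.15 and that of TET2 over TET3 by 1.47. No knockdown library overlapped a shLuc library in any of the 5 ratios. Every ratio holds a gene whose own groups did not overlap, and for TET2 over TET1 the result was fixed by the single genes. The ratios are thus no separate evidence, and the share among other gene pairs was not taken. Each ratio gave p = 0.133 in a 2-sided exact permutation test over 15 arrangements, before and after adjustment over the 5. This test exchanges libraries without regard to cell line, and with 4 libraries against 2 that is the smallest p it allows, so it cannot pass 0.05.

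Each hairpin was also set against shLuc on its own. With shDDX18#1 against shLuc 5 genes fell (DNMT3A, DNMT3B, DNMT1, UHRF1 and TET1) and TET2 rose, where 13.4% of all tested genes fell and 14.4% rose. With shDDX18#3 against shLuc DNMT3B, UHRF1 and TET1 fell and TET2 rose, where 3.69% of all tested genes fell and 6.96% rose. DNMT3A fell by 0.76 on the log2 scale with shDDX18#1 (limma adjusted p = 0.0122), and had a log2 fold change of 0.01 with shDDX18#3 (limma adjusted p = 0.966). DNMT1 fell by 0.87 with shDDX18#1 (limma adjusted p = 0.0086) and had a log2 fold change of -0.31 with shDDX18#3 (limma adjusted p = 0.315). The DNMT3A call with shDDX18#1 was lost in limma without the block (adjusted p = 0.0512) and without the trend (adjusted p = 0.0844), and that of DNMT1 without the trend (adjusted p = 0.0726). Both hairpins are set against the same 2 shLuc libraries, so their results are not independent.

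For DNMT3B the log2 fold change was -2.23 with shDDX18#1 and -1.66 with shDDX18#3, and for TET1 it was -1.5 with shDDX18#1 and -1.04 with shDDX18#3. UHRF1 had -1.93 with shDDX18#1 and -1.04 with shDDX18#3, and TET2 had 1.47 with shDDX18#1 and 1.24 with shDDX18#3. With shDDX18#3 the calls of UHRF1, TET1 and TET2 were lost in limma without the block for cell line (adjusted p = 0.178, 0.0700 and 0.109) and without the trend (adjusted p = 0.137, 0.0834 and 0.0601). Set directly against shDDX18#3, shDDX18#1 gave no called gene among the 8, where 0.0% of all tested genes were called. At an unadjusted p under 0.05 limma and edgeR both had 5 of the 8 (DNMT1, DNMT3A, DNMT3B, TET1 and UHRF1) and DESeq2 had 4, none of them called after adjustment. Over all genes limma called 0, with 2536 at an unadjusted p under 0.05, while edgeR called 31 and DESeq2 called 113. The largest of these differences was that of UHRF1, -0.89 with a 95% interval of -1.45 to -0.33 (limma adjusted p = 0.181), and that of DNMT3A was -0.78 with an interval of -1.16 to -0.39 (limma adjusted p = 0.137). The same difference for DDX18 itself was -0.93 and was not called either (limma adjusted p = 0.145).

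The H9 shDDX18#1 library has the lowest DDX18 and the highest fibroblast and feeder marker share. Without it the comparison of both hairpins with shLuc still called 4 of the 8 genes, but shDDX18#1 against shLuc called 4 in place of 6, with DNMT3A (limma adjusted p = 0.106) and DNMT1 (limma adjusted p = 0.0811) no longer past the threshold. Without either shLuc library the comparison of both hairpins with shLuc lost most calls, to 1 of 8 without the H9 one and 0 without the HES2 one. Those fits leave 1 control library, which is assumed to vary like the others.

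**Figure D3:**
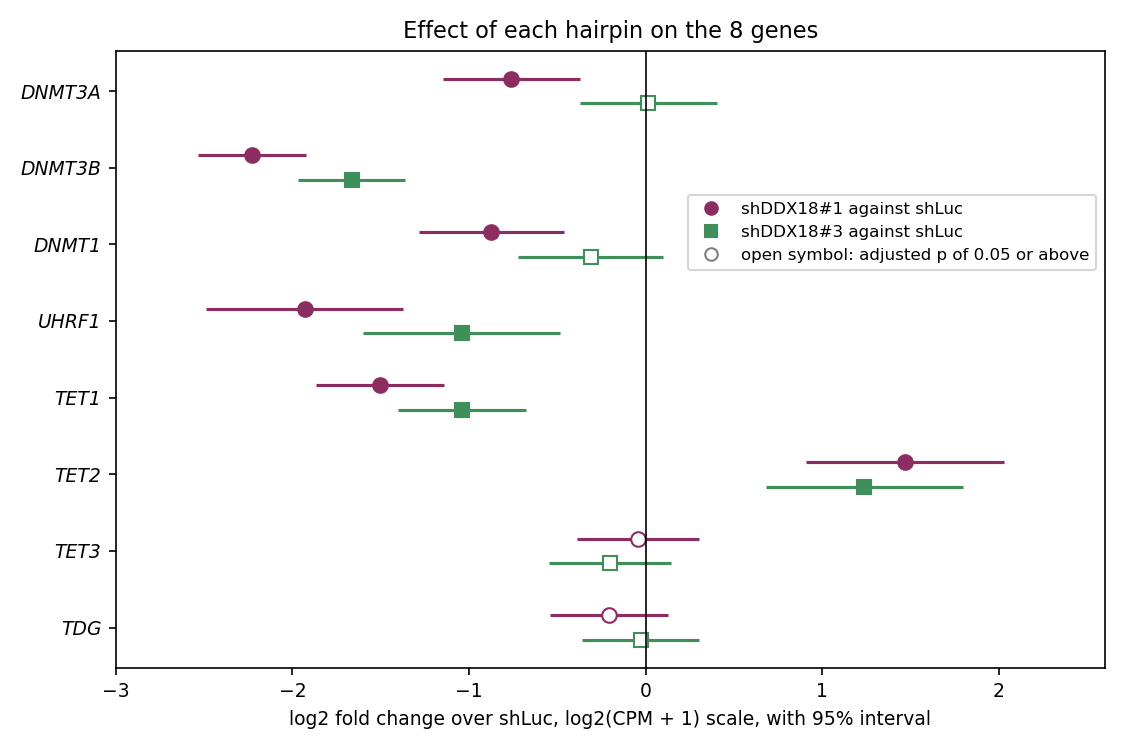
Log2 fold change over shLuc of each gene with shDDX18#1 (circles) and shDDX18#3 (squares), on the log2(CPM + 1) scale with its 95% interval; filled symbols have a limma adjusted p under 0.05. DNMT3A and DNMT1 are filled for shDDX18#1 alone, and the TET3 and TDG intervals cross 0 for both hairpins.

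No difference between the lines was called in these genes. In HES2 against H9 none of the 8 was called by limma, edgeR or DESeq2, and none had an unadjusted p under 0.05 in any of them, where limma called 5.42% of all tested genes. The log2 differences ran between -0.18 for DNMT3B and 0.40 for UHRF1, whose 95% interval was -0.05 to 0.86. The knockdown effect in HES2 minus that in H9 was also called for none of the 8, with none at an unadjusted p under 0.05 by any of the 3 tools, where limma called 0.0% of all tested genes. Over all genes that interaction had 0 calls by limma, with 788 at an unadjusted p under 0.05, 0 by edgeR and 14 by DESeq2. Its intervals are wide: for DNMT1 the difference was 0.59 with an interval of -0.52 to 1.70, so an unequal effect of that size was not detectable at this depth and number of libraries.

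The authors' deposited table gives the same signs, from the same 6 libraries, so it is no separate evidence. In the authors' deposited table the log2 fold change was -1.92 for DNMT3B, -1.42 for UHRF1, -1.26 for TET1 and 1.47 for TET2, and each passed at 0.05. DNMT1 had -0.57 with a false discovery rate of 0.0907 and DNMT3A -0.31 with one of 0.459 in the authors' deposited table.

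Genes of the surrounding pathway were counted in lists, beside 6.26% of all tested genes that fell and 9.6% that rose. Of 13 measured partners of the methylation enzymes 5 fell and none rose, with a median log2 fold change of -0.61. CDCA7, which forms with HELLS a remodeller needed for methylation of heterochromatin, and its relative CDCA7L fell by 1.62 and 1.37 on the log2 scale (limma adjusted p = 0.0179 and 0.0104). PCNA, the replication clamp that DNMT1 binds, fell by 0.88, TRIM28, a corepressor of KRAB zinc finger proteins, by 0.87, and USP7, a deubiquitinase that binds DNMT1 and UHRF1, by 0.63. DNMT3L and ZFP57 of that list were not found by symbol among the 17929 genes.

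In the methyl donor cycle, which makes S-adenosylmethionine, 3 of 12 genes fell and none rose, with a median of -0.55. Of all tested genes 6.26% fell and 9.6% rose. MTHFD1, a folate enzyme, fell by 1.20, MAT2A, the catalytic subunit that makes S-adenosylmethionine, by 0.95, and MAT2B, its regulatory subunit, by 0.66 on the log2 scale. In a separate list of 7 TET cofactor genes 1 fell and 1 rose, with a median log2 fold change of -0.14. The gene that rose was CXXC4, a CpG-binding protein encoded next to TET2, by 1.23 (limma adjusted p = 0.0221). CXXC4 was scarce, with a mean of 3.14 CPM with shLuc and 8.75 CPM in knockdown.

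Base excision repair, the step after TDG, had 2 of 16 genes lower and 2 higher, a count near the shares of all tested genes, with a median of -0.22. GADD45A and GADD45B, stress-induced genes with a described part in demethylation, rose by 1.98 and 1.81, while UNG, a uracil glycosylase, and PARP1, which senses strand breaks, fell by 1.5 and 1.19. Among 9 genes listed as methyl-CpG readers or their relatives MBD5, MBD6 and MBD2 rose by 1.13, 0.91 and 0.98 and none fell. The list median was 0.54, where 9.6% of all tested genes rose. MBD3, MBD5 and MBD6 are relatives by family and are not established readers of methylated CpG. Of 24 germline genes known to be silenced by promoter methylation 4 were measured. TEX15 fell by 1.80 (limma adjusted p = 0.0487), and DAZL, SYCP3 and TEX14 were not called. Over the 6 libraries DAZL lay at 0 to 1.56 CPM, SYCP3 at 1.38 to 2.45 CPM and TEX14 at 0 to 1.62 CPM. That is near the floor of 3 reads, so their changes were poorly measured. The other 20 were not found by symbol among the 17929 genes.

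**Figure D4:**
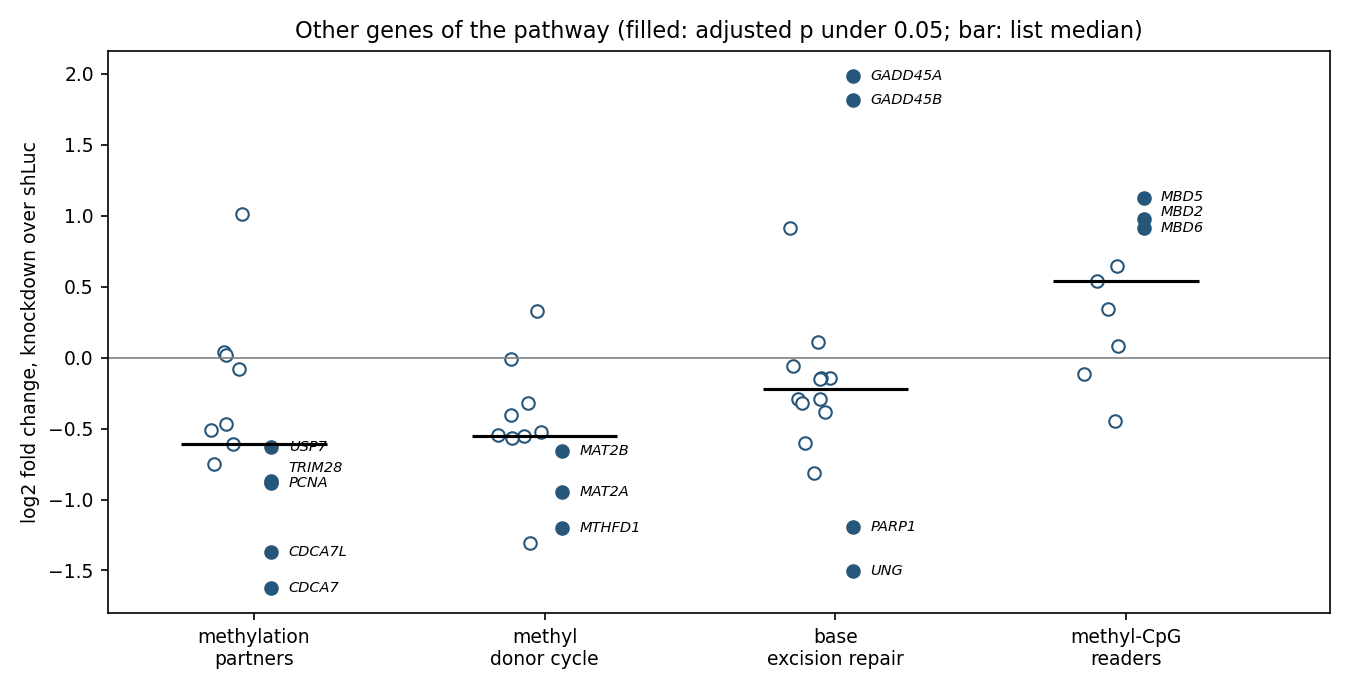
Log2 fold change of knockdown over shLuc (vertical axis) for the genes of 4 lists around the methylation enzymes; filled points have a limma adjusted p under 0.05 and the bar is the list median. Called genes lie below 0 in the partner and methyl donor lists, above 0 in the list of readers and relatives, and on both sides of 0 in base excision repair.

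Markers of cell state were lower or higher beside these genes, where 6.26% of all tested genes fell and 9.6% rose. Of 28 S phase genes 21 fell and none rose, with a median log2 fold change of -1.20, E2F1, MCM6, CCNE1 and MCM5 leading. All 28 were lower than the line's own shLuc in each of the 4 knockdown libraries. Over the list the median log2 difference from shLuc was -1.89 for H9 shDDX18#1, -0.91 for H9 shDDX18#3, -1.18 for HES2 shDDX18#1 and -0.76 for HES2 shDDX18#3. In the same order the log2 difference was -2.36, -1.02, -1.51 and -1.07 for UHRF1 and -1.24, -0.53, -0.51 and -0.09 for DNMT1. In both lines the shDDX18#1 library was the lower of the pair in the S phase median, in UHRF1 and in DNMT1, and also in DNMT3A, DNMT3B, TET1, TDG and DDX18.

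Of the 14 embryonic stem cell markers 10 fell and none rose, where 6.26% of all tested genes fell. Their median was -1.28, with PRDM14, TERF1, SOX2 and L1TD1 leading. Over the list the median log2 difference from shLuc was -1.66 for H9 shDDX18#1, -0.89 for H9 shDDX18#3, -1.79 for HES2 shDDX18#1 and -0.99 for HES2 shDDX18#3. In the same order it was -2.18, -1.71, -2.28 and -1.62 for DNMT3B and -1.70, -1.13, -1.31 and -0.95 for TET1. The summed level of the list was 4559 to 5547 CPM in knockdown and 7111 and 6282 CPM with shLuc in H9 and HES2, of which PODXL, named after its values were seen and not called across both hairpins, held 2128 to 2930 CPM in knockdown and 2143 and 1237 CPM with shLuc.

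Of the 20 fibroblast and feeder markers 20 and 18 were higher than the control in H9 with shDDX18#1 and shDDX18#3, and 18 and 13 in HES2. Their median log2 difference was 3.08 for H9 shDDX18#1, 2.01 for H9 shDDX18#3, 1.90 for HES2 shDDX18#1 and 1.65 for HES2 shDDX18#3, beside 1.54, 1.17, 1.40 and 1.31 for TET2 in the same order. The summed level was 49798 and 18942 CPM in H9 with shDDX18#1 and shDDX18#3 and 7420 and 5969 CPM in HES2, against 4550 CPM in H9 shLuc and 1694 CPM in HES2 shLuc. In HES2 with shDDX18#1 and shDDX18#3 COL1A1 had 1124 and 749 CPM, against 59.5 CPM in HES2 shLuc, and ACTA2 had 80.8 and 102 CPM, against 2.68 CPM. The part of S phase, cell state or feeder RNA in the levels of the 8 genes was not tested.

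**Figure D5:**
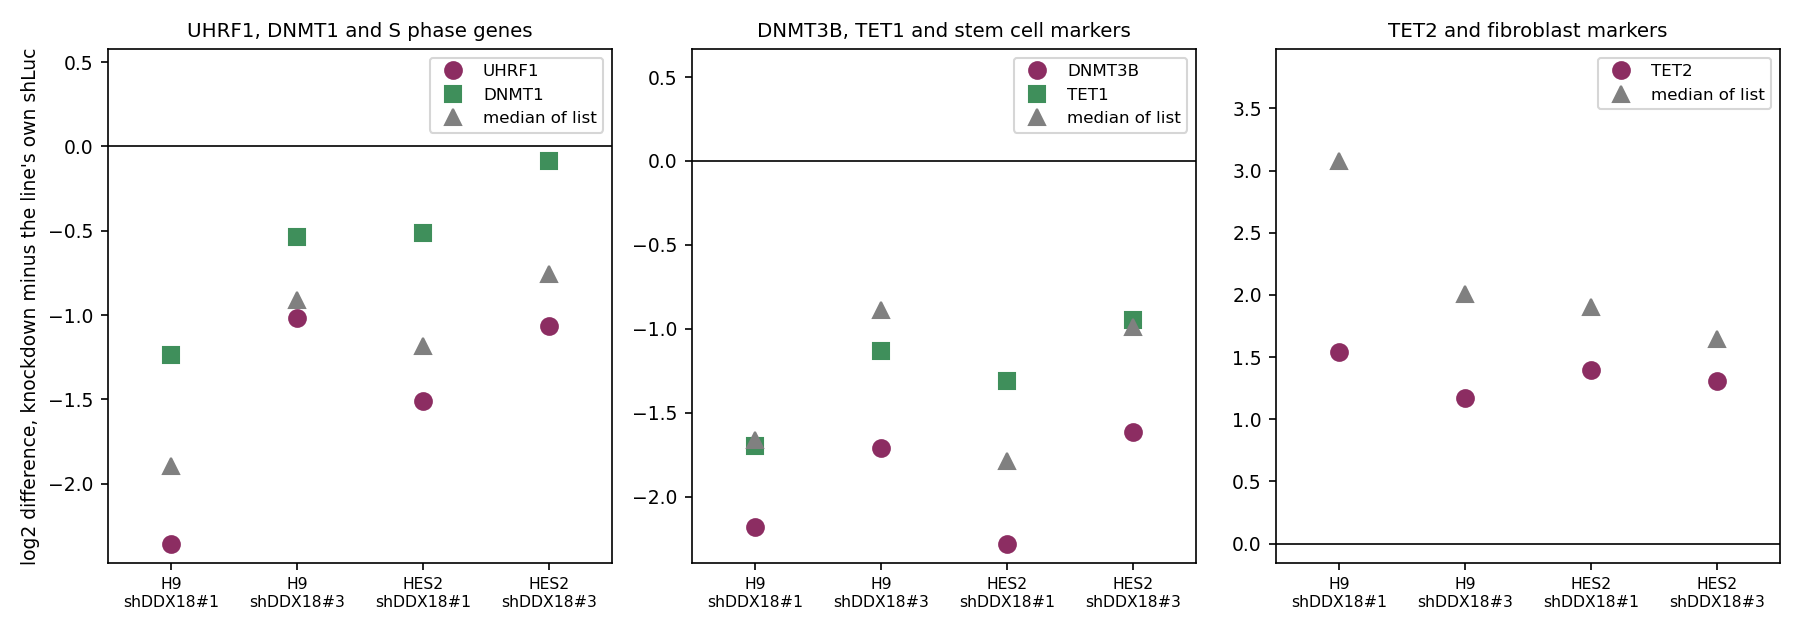
Log2 difference of each knockdown library from its line's own shLuc, on the log2(CPM + 1) scale, for UHRF1 and DNMT1, for DNMT3B and TET1, and for TET2, with grey triangles at the median over the genes of the S phase, embryonic stem cell and fibroblast and feeder lists. UHRF1 and DNMT3B lie below their triangles in all 4 libraries, DNMT1 lies above and TET2 below, and TET1 lies on either side, at -1.31 beside a median of -1.79 in HES2 with shDDX18#1 and at -1.13 beside -0.89 in H9 with shDDX18#3.

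Across the 6 libraries some of the genes moved together, which is given as a description since all points share the knockdown. Pearson's r of log2(CPM + 1) was 0.986 for DNMT3B with TET1, 0.947 for DNMT1 with UHRF1, 0.901 for DNMT3A with TDG, -0.978 for DNMT3B with TET2 and -0.975 for TET1 with TET2. TET3 had an r between -0.601 and 0.228 with the others. By the same measure over 10485 genes with a mean of at least 10 CPM, the genes most like DNMT3B were PHLPP1 (r = 0.998), NAA50 and FOXD3 (both 0.996). Those most like UHRF1 were G3BP1 (0.999), AHCTF1P1 (0.999) and EWSR1 (0.998), and those most like DNMT1 were PSMA4 (0.998), CACYBP and SF3A3 (both 0.996). TET1 was most like ELOVL5, METTL17 and RPS15A, and TET2 most like MAN1A2 (0.999), TMTC1 and PARVA (both 0.996). DNMT3A was most like TOM1L1 (0.992), G6PC3 and DIS3L, TET3 most like TST (0.992), LRWD1 and DUSP7, and TDG most like WDHD1 (0.995), METTL8 and KLHL12. These r are the highest of 10485 genes over 6 libraries and are high by selection, also for TET3 and TDG, which were not called. FOXD3, a transcription factor of pluripotent cells and neural crest, had 10.2 and 14.9 CPM in H9 with shDDX18#1 and shDDX18#3 and 8.04 and 12.3 CPM in HES2, against 35.7 CPM in H9 shLuc and 34.0 CPM in HES2 shLuc.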

How the data were processed

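Messenger RNA of H9 and HES2 cells was sequenced from TruSeq RNA libraries, a kit that does not mark strand. Bowtie2 2.3.4.3, SAMtools 1.9, HTSeq 0.11.2, edgeR 3.26.8 and hg19 are named in the submitters' processing notes, without the part each played. The authors deposited 1 table that holds each library's normalized signal beside the p-value, false discovery rate, likelihood ratio score, log2 fold change and mean log2 abundance of their own test, of which the score and abundance were not used here. Every deposited signal was a whole number of reads within 0.001 once divided by the value of 1 read (100% of values), so reads were recovered for count tests. Replicate 1 is H9 and replicate 2 is HES2.

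Values were tested as log2(CPM + 1) in R 4.3.3 (limma 3.58.1, intensity trend on), for genes of at least 1 CPM in at least 2 libraries, which kept 17768 genes and left out 161. Cell line was a block, since same-numbered libraries share a line and their deviations from the arm means correlated (r = 0.654, 0.363 and 0.454 over 17768 genes). Each library was left out in turn, and further fits used count models on recovered reads (edgeR 4.0.16, DESeq2 1.42.0), pseudocounts 0.25 or 4, a filter at 5 CPM or none, 3 other scalings, and limma without block, without trend or with a robust prior. The fits were tested on simulated data. Exon lengths and overlaps come from GENCODE and sequences from RefSeq, both on GRCh38. Ratio intervals to a control cover counting error only, from the exact binomial test at 95%.

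The 8 genes and the lists were chosen with earlier results of these data known. Named genes are the 8, DDX18, TDGP1, the called genes with the 4 smallest p of each list (USP7, DAZL, SYCP3, TEX14, DCN, FAP and PODXL were added after their values were seen), and the 3 genes most like each of the 8 by Pearson's r. The values of 1 gene that this rule names are not reported here.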

Additional observations from a re-analysis of the deposited data

How the results depend on the processing

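Of 840 alternatives for single genes and comparisons, 774 kept the direction and the side of the threshold, 30 lost a call, 9 gained one and 27 changed sign. For both hairpins against shLuc the number of called genes was 3 with no replicate block, 3 without the trend and 0 to 4 with 1 library left out, against 4 reported. For shDDX18#1 against shLuc it was 5 with no replicate block, 4 without the trend and 4 to 6 with 1 library left out, against 6 reported. For shDDX18#3 against shLuc it was 1 with no replicate block, 1 without the trend, 3 by DESeq2 and 0 to 5 with 1 library left out, against 4 reported. Without the block or the trend DNMT3B alone was called there, and the count was 1 without the H9 and 0 without the HES2 shDDX18#3 library. For shDDX18#1 against shDDX18#3 it was 0 to 4 with 1 library left out, the 4 being DNMT3A, DNMT3B, DNMT1 and UHRF1 without either shLuc library.

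In the comparison of both hairpins with shLuc, UHRF1 lost its call in 5 of 18 alternatives (adjusted p 0.0018 to 0.245 over all), TET1 and TET2 in 2 each (up to 0.112 and 0.0985) and DNMT3B in 1 (0.0558, without the HES2 shLuc library). TET2 with shDDX18#3 lost it by DESeq2 (adjusted p = 0.0596). The cause was not tested.

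Signs changed only where nothing was called. With 1 library left out the log2 value ran between -0.15 and 0.067 for TET3 with shDDX18#1, -0.23 and 0.26 for DNMT3A with shDDX18#3, -0.080 and 0.024 for TDG with shDDX18#3, -0.29 and 0.023 for DNMT3A in HES2 against H9, -0.033 and 0.33 for DNMT1 in HES2 against H9, -0.57 and 0.52 for DNMT3A in the interaction, -0.34 and 0.33 for DNMT3B in the interaction, -0.27 and 1.07 for UHRF1 in the interaction, -0.19 and 0.19 for TET2 in the interaction and -0.032 and 0.24 for TDG in the interaction. Under library-total scaling it was 0.0088 for TDG in HES2 against H9 and 0.047 for DNMT3A in the interaction and 0.074 for DNMT3B in the interaction. Under median-of-ratios scaling it was 0.0042 for DNMT3B in the interaction. Under quantile normalization it was 0.0071 for DNMT3B in the interaction. Under edgeR it was 0.017 for DNMT3B in the interaction and -0.030 for TET2 in the interaction. Under DESeq2 it was 0.025 for DNMT3B in the interaction and -0.029 for TET2 in the interaction. Under pseudocount 0.25 it was -0.018 for TET2 in the interaction. Under library-total scaling the median HES2 against H9 difference of all genes was 0.15, against 0.03 with the deposited scaling, and differences between the lines are read relative to it. The interaction could not be fitted without a shLuc library. Depth limits UHRF1 and TET2 most, with as few as 33 and 23 reads.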
